A study of Mus musculus with 8 samples.

Results

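The ephrin, semaphorin, slit and netrin families guide growing axons and, in the adult brain, act at synapses, on glia and on vessels. The genes were taken from the count table by symbol: Eph receptors (Epha, Ephb) and ephrins (Efna, Efnb), semaphorins (Sema), plexins (Plxn), the neuropilins Nrp1 and Nrp2, Slits and their Robo receptors, netrins (Ntn), Dcc and the Unc5 receptors. The rule found 71 of the 37310 genes in the table, which are 68 protein-coding genes and 3 antisense RNAs of the Plxna4 locus. RNA came from the whole hippocampus of 4 mice heterozygous for an Nr2f1 knockout (label Nr2f1 het) and 4 WT mice, all B6.129 F1-hybrid animals aged 3 months with no treatment listed, each sequenced as a separate library. How the knockout allele was made is not given in the sources used here. Nr2f1 encodes a nuclear receptor that patterns the developing cortex and hippocampus, and the design asks how hippocampal transcripts differ when a copy is disrupted.

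In these families a ligand and its receptor usually sit on different cells. A-type ephrins are anchored to the membrane by a lipid and mostly bind A-type Eph receptor kinases, and B-type ephrins span the membrane and mostly bind B-type Eph receptors. Semaphorins signal through plexins, and most secreted class 3 semaphorins need a neuropilin as the binding partner. Slits repel axons through Robo receptors, and netrins attract through Dcc or repel through Unc5 receptors. In the hippocampus the Eph, semaphorin and plexin genes are known for sorting mossy fibre and other layered inputs and for shaping dendritic spines.

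Libraries held 58717305 to 88831603 gene counts in heterozygotes and 76154175 to 90043971 in WT. Nr2f1 (ENSMUSG00000069171.7, chromosome 13) was at 32.4, 31.0, 33.5 and 28.5 CPM (read counts scaled to a common library size, after TMM scaling) in heterozygote libraries 1 to 4, against 53.4, 49.5, 54.1 and 51.6 CPM in WT libraries 1 to 4. The heterozygote mean was 60.1% of the WT mean, and the genotypes did not overlap (exact two-sided permutation p = 0.0286, the smallest that 4 against 4 allows). The labels say male, but Xist, which coats the inactive X chromosome, lay at 463.2 to 547.5 CPM in heterozygotes and 502.1 to 601.4 CPM in WT, and 14 genes of the Y chromosome totalled 3 counts in the 8 libraries. All 8 libraries thus go against the sex label, in both genotypes. Markers of hippocampal neurons were present in every library: the summed level of CA1 markers was 707.2 to 823.6 CPM in heterozygotes and 858.1 to 906.7 CPM in WT, and that of dentate granule markers 293.4 to 363.0 and 275.9 to 346.0 CPM. The CA1 sums did not overlap between genotypes. Of the 5 CA1 markers tested, 2 were called lower in heterozygotes, Wfs1 and Mpped1 (edgeR adjusted p = 0.0362 and 0.0409). The log2 fold change of Fibcd1, on the same list, was positive at 0.048. Among CA3 and CA2 markers 1 was called higher and 1 lower, and 1 dentate granule marker was called lower. Interneuron sums did not overlap either, at 960 to 996.7 CPM in heterozygotes and 871.5 to 957.8 CPM in WT, with 1 marker called higher. Nor did astrocyte sums, at 5099 to 5446 and 5486 to 5767 CPM, with 0 markers called. The part of these differences in the guidance genes was not tested. Of the 6 CA1 markers, Pou3f1 was listed at 0 throughout. Libraries differed in the level of choroid plexus markers. All 12 of these markers were higher in every heterozygote library than in any WT library, and none was at 0. None of the 12 was called (edgeR adjusted p = 0.0659 to 0.350). Their summed level was 4094 to 4626 CPM in heterozygotes against 81.5 to 2096 CPM in WT, and was lowest in WT libraries 1 and 3.

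The guidance genes were expressed over a wide range, with A-type Eph receptors at both ends of it. Levels of different genes are compared as CPM per kilobase of exon, averaged over all 8 libraries. Epha4, a receptor for ephrins of both types, led at 56.8 CPM per kilobase, followed by the secreted repellent Slit1 at 52.5. The netrin receptor gene Unc5a (43.0), the B-type ephrin gene Efnb3 (42.8), the lipid-anchored semaphorin gene Sema7a (34.4) and the transmembrane semaphorin gene Sema6b (34.3) came next. Epha4 and Slit1 (SD over 8 libraries 5.20 and 3.47), Unc5a and Efnb3 (SD 1.01 and 2.28), and Sema7a and Sema6b (SD 2.61 and 1.23) were each within their spread, while Slit1 stood above Unc5a, and Efnb3 above Sema7a, by more than these SDs. Of the 68 protein-coding genes, 19 were at 10 CPM per kilobase or above, 43 between 1 and 10, and 6 below 1. The lowest were Epha1 (0.106), Epha2 (0.178), Efna4 (0.257), Sema3a (0.303), Efna5 (0.588) and the endothelial receptor gene Robo4 (0.999).

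**Figure D1:**
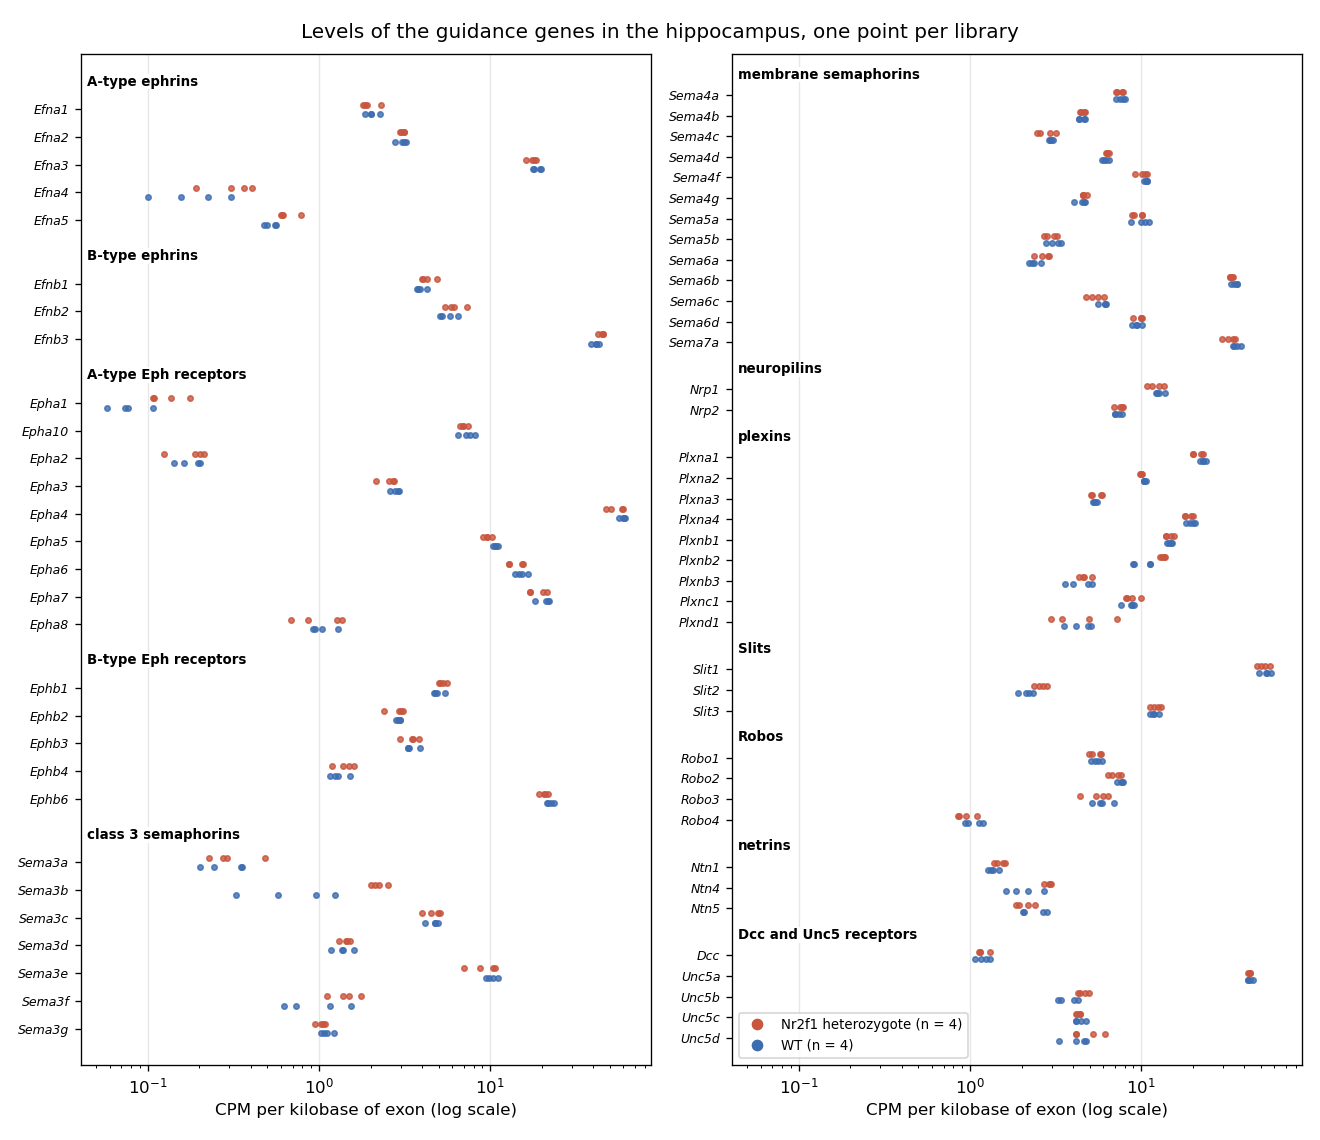
Level of each of the 68 guidance genes in CPM per kilobase of exon (log axis), grouped by role, with 1 point per library for heterozygotes (red, upper row of each gene) and WT (blue, lower row). Levels span from about 0.106 for Epha1 to 56.8 for Epha4, and the genotypes lie close together for most genes, Sema3b being an exception.

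Each family had its leading members. Among A-type ephrins Efna3 stood at 18.2 CPM per kilobase, and the other 4 ran from 0.257 to 3.05. B-type Eph receptors were led by Ephb6, a member without kinase activity, at 21.5. Class 3 semaphorins were led by Sema3e, whose product can bind Plxnd1 directly, at 9.68. Plexins were led by Plxna1 at 22.2 and Plxna4 at 19.2, and Robos by Robo2 at 7.30. Among netrins, Ntn4 (2.49, SD 0.526) and Ntn5 (2.25, SD 0.350) were within their spread over libraries: Ntn4 stood at 2.88 and Ntn5 at 2.10 in heterozygotes, against 2.09 and 2.39 in WT. Nrp1 stood at 12.4 and Nrp2 at 7.38 CPM per kilobase. Dcc, the attractive netrin receptor gene, was at 1.18 CPM per kilobase, well under Unc5a.

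A single gene of the 68 passed the comparison of genotypes. All 68 had counts above the low-count filter in all 8 libraries, so none was tested through one genotype alone, and the 3 antisense RNAs fell below it. At an edgeR adjusted p of 0.05 over all 17913 genes tested, 1 of 68 guidance genes was called, or 1.47%, where 2.99% of all tested genes were called (2.62% higher and 0.368% lower in heterozygotes). Ligand genes and receptor genes were equally many, 34 each, with 0 and 1 called. At an unadjusted edgeR p under 0.05 there were 15 guidance genes (22.1%), 9 higher and 6 lower in heterozygotes, beside 17.2% of all genes (10.0% higher and 7.11% lower). The genotypes did not overlap for 7 guidance genes (10.3%), 5 higher and 2 lower, beside 10.6% of all genes (6.99% higher and 3.59% lower). The median log2 fold change was -0.0083 over the guidance genes and -0.0056 over all genes, and 35 of the 68 differed by less than 0.1 on the log2 scale. Estimates were negative for 36 of the 68 guidance genes, beside 9340 of all 17913 genes, which is the background for the sign counts of families below.

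**Figure D2:**
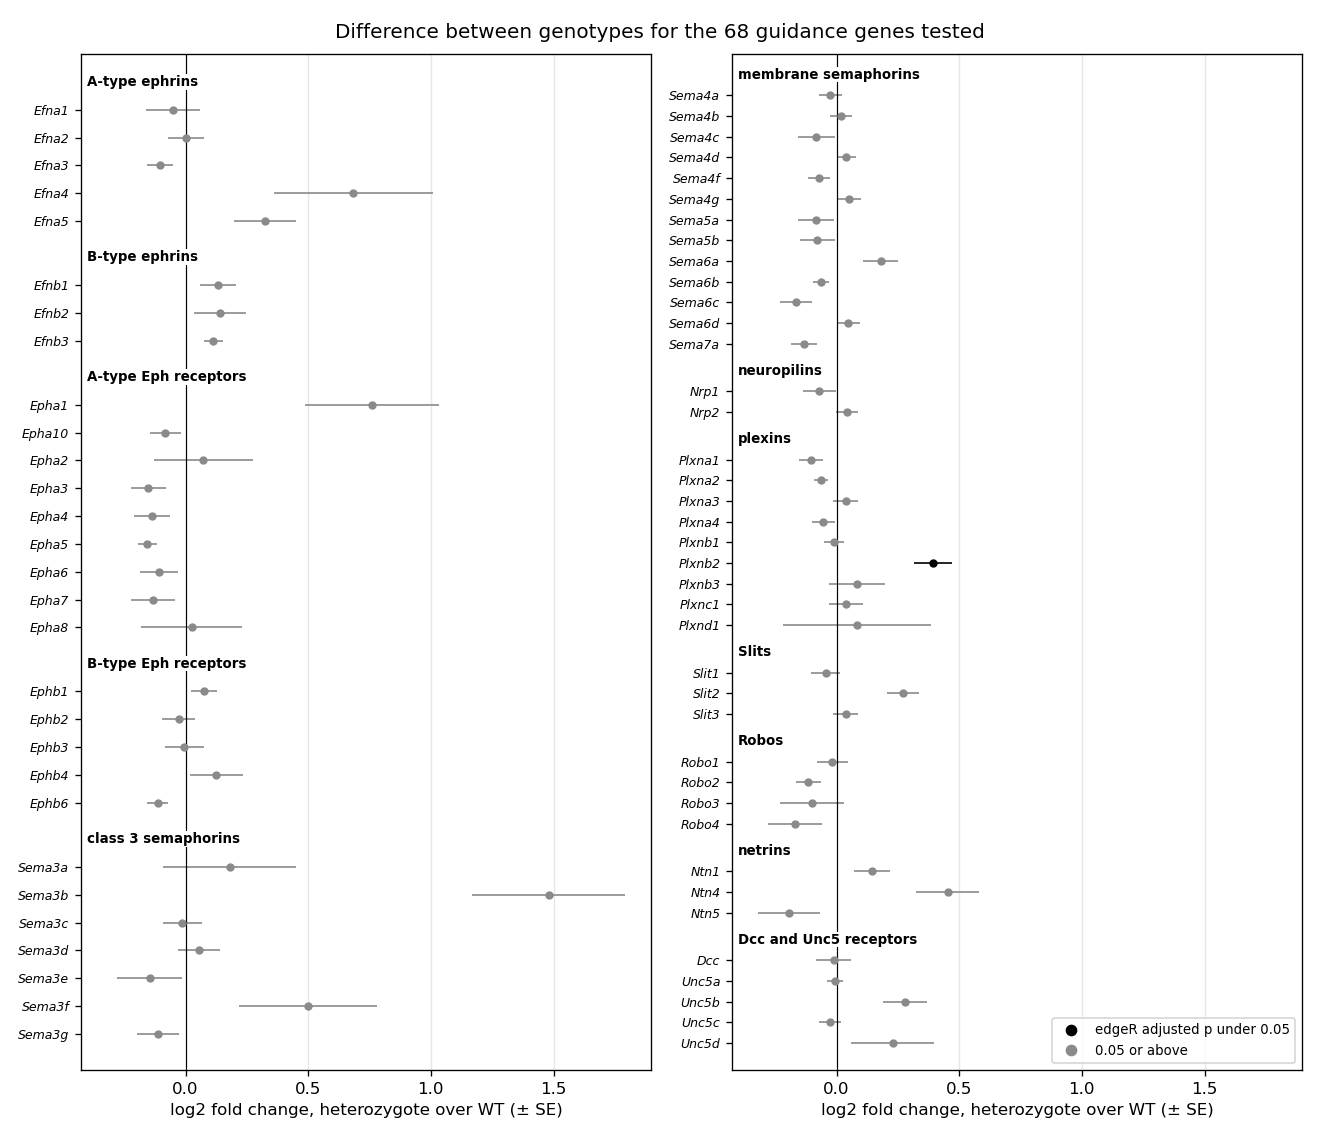
Log2 fold change of heterozygotes over WT with its standard error for each of the 68 guidance genes, grouped by role (4 libraries per genotype). Plxnb2, in black, is the gene past an edgeR adjusted p of 0.05; Sema3b has the largest estimate, at 1.48, with a wide error.

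Plxnb2, which encodes a plexin that binds class 4 semaphorins, rose in heterozygotes. It was at 99.3, 106, 103 and 104 CPM in heterozygote libraries 1 to 4, against 69.4, 87.3, 70.3 and 86.3 CPM in WT libraries 1 to 4. Every heterozygote library lay above every WT library, and WT libraries 1 and 3 lay well below WT libraries 2 and 4. The mean was 103.0 ± 2.72 CPM in heterozygotes against 78.3 ± 9.81 CPM in WT (SD, n = 4 each), a 1.31-fold difference (log2 fold change 0.39 ± 0.0764 SE; edgeR adjusted p = 0.0275). In bulk tissue, a different number of cells of a type and a different amount of RNA per cell cannot be told apart. The call was lost without each heterozygote library (edgeR adjusted p = 0.0638 to 0.0871) and without WT library 1 (0.0546) or 3 (0.0677), while the log2 fold change stayed at 0.34 or above. None of the other 8 plexin genes passed. Plxna2, a receptor of the mossy fibre system, had 171, 172, 168 and 174 CPM in heterozygotes against 183, 178, 177 and 178 CPM in WT; the genotypes did not overlap, but the log2 difference of -0.064 ± 0.0293 (SE) did not pass (edgeR adjusted p = 0.291). Plxna1, a co-receptor for class 3 semaphorins, had 202, 181, 182 and 209 CPM in heterozygotes against 207, 208, 217 and 198 CPM in WT, and the genotypes overlapped (edgeR adjusted p = 0.307). The plexins other than Plxnb2 had log2 fold changes from -0.10 for Plxna1 to 0.084 for Plxnb3; 10.7% of the exon bases of Plxna1 overlap an antisense RNA. Plxnd1 varied most, at 21.8, 35.9, 52.7 and 25.1 CPM in heterozygotes and 37.2, 30.5, 25.7 and 35.8 CPM in WT, and the heterozygote values spanned the whole WT range.

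The 5 guidance genes with the lowest p were Plxnb2, Slit2, Sema3b, Epha5 and Ntn4. To show their regulatory sequence, the 250 bases before the start of Plxnb2, Slit2, Ntn4 and Epha5 are given from RefSeq (GRCm38.p6), each 5′ to 3′ on the strand of its gene. Capitals mark AGGTCA, the core element bound by nuclear receptors of the Nr2f family, searched on both strands.
Plxnb2, chr15:89180789-89181038, minus strand: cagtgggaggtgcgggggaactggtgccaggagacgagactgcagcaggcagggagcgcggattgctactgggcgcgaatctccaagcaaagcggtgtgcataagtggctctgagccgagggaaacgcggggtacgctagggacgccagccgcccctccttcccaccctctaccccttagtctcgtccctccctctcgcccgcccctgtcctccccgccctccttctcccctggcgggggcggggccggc
Plxnb2, inner start, chr15:89173952-89174201, minus strand: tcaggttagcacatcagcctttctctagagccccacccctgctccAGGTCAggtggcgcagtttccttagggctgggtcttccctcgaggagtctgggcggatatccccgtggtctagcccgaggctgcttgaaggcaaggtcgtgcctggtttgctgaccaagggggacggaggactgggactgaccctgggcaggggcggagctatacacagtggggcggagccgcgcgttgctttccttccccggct
Slit2, chr5:47982905-47983154, plus strand: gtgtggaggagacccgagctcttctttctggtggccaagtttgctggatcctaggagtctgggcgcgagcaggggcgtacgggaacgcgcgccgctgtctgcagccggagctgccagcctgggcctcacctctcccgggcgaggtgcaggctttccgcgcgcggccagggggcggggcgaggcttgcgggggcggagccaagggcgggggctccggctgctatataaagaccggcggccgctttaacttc
Ntn4, chr10:93640799-93641048, plus strand: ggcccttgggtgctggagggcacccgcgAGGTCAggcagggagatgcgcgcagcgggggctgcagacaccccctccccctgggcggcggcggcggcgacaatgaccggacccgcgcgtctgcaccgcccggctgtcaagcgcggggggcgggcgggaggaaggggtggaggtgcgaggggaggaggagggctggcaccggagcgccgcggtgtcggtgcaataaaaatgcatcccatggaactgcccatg
Epha5, chr5:84417383-84417632, minus strand: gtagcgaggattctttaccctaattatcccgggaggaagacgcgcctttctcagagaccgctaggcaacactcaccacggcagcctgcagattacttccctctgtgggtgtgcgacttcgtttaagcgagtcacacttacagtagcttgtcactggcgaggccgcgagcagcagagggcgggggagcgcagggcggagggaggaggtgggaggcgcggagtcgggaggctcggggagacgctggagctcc
In GENCODE M21, the inner Plxnb2 window lay within an intron of Plxnb2 and the Ntn4 window within an intron of a longer Ntn4 transcript; the last 17 bases of the Slit2 window were in an exon of a Slit2 transcript, and the other windows held no annotated gene. AGGTCA began 205 bases before the inner Plxnb2 start and 222 bases before the Ntn4 start, and the windows of Slit2 and Epha5 did not contain it. RefSeq windows were matched for 58 of the 68 genes, 74 windows in all, and 11 of these held AGGTCA (14.9%), beside 14.0% of 32851 windows of the same length over all genes. AGGTCA repeated in the same direction with 1 base between the copies was in 0 of the 74 windows and in 0.0335% of all windows, and with 2 bases between them in 0 of the 74 and in 0.00913%. A match describes the letters and not binding.

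None of the 7 class 3 semaphorin genes passed, but Sema3b had the largest estimate of all 68 guidance genes. It was at 10.7, 12.002, 9.64 and 10.1 CPM in heterozygotes, against 1.57, 4.59, 2.77 and 5.92 CPM in WT libraries 1 to 4. The genotypes did not overlap, and WT libraries differed among themselves by more than the heterozygote libraries did. The fold was 2.79 (log2 fold change 1.48 ± 0.311 SE) and missed the threshold (edgeR adjusted p = 0.0557). DESeq2 and limma-voom called it (adjusted p = 0.00558 and 0.0106). Sema3f, which binds Nrp2, had 5.76, 9.17, 7.21 and 7.77 CPM in heterozygotes and 3.83, 6.04, 3.26 and 7.95 CPM in WT; the genotypes overlapped and the log2 fold change of 0.50 ± 0.281 (SE) did not pass (edgeR adjusted p = 0.427). The other 5 class 3 genes had log2 fold changes from -0.15 for Sema3e to 0.18 for Sema3a.

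Slit2, a secreted repellent, had 71.4, 67.6, 60.4 and 64.4 CPM in heterozygotes, against 53.9, 48.5, 59.6 and 56.2 CPM in WT libraries 1 to 4. The genotypes did not overlap, heterozygote library 3 lying just above WT library 3. Its log2 fold change was 0.27 ± 0.0657 (SE; edgeR adjusted p = 0.0533), and limma-voom and DESeq2 called it (adjusted p = 0.0464 and 0.00319). Slit1 and Slit3 differed by -0.045 ± 0.0575 and 0.037 ± 0.0506 on the log2 scale (SE), and of the 4 Robo receptor genes none passed. All 4 Robo estimates were negative, from -0.017 for Robo1 to -0.17 for Robo4. Robo2 had 124, 115, 108 and 129 CPM in heterozygotes and 132, 129, 132 and 123 CPM in WT, and the genotypes overlapped (log2 fold change -0.11 ± 0.0510 SE; edgeR adjusted p = 0.274).

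Among netrin genes, Ntn4, whose product is a matrix protein that also binds laminin, was at 10.1, 10.9, 11.1 and 10.9 CPM in heterozygotes, against 6.08, 8.19, 6.92 and 10.1 CPM in WT libraries 1 to 4. The heterozygote libraries were close together, and WT library 4 lay just under the lowest of them, so that the genotypes did not overlap. The log2 fold change was 0.45 ± 0.129 (SE; edgeR adjusted p = 0.0917), and DESeq2 called the gene (adjusted p = 0.0129) while limma-voom did not. Ntn1, the classical attractant, had 8.67 to 9.99 CPM in heterozygotes and 7.95 to 9.32 CPM in WT, and its log2 fold change of 0.15 ± 0.0730 (SE) did not pass (edgeR adjusted p = 0.332). Ntn5 differed by -0.19 ± 0.126 (SE) on the log2 scale, and 23.4% of its exon bases overlap the opposite-strand gene Sec1, whose reads cannot be told apart without strand. Of the netrin receptors, Unc5b, known from endothelial and neural cells, had 29.3, 30.9, 27.5 and 26.7 CPM in heterozygotes, against 20.4, 26.9, 21.2 and 25.5 CPM in WT. These values overlapped at heterozygote library 4 and WT library 2, and the log2 fold change was 0.28 ± 0.0880 (SE; edgeR adjusted p = 0.124). DESeq2 called Unc5b too (adjusted p = 0.0340), and limma-voom did not. The log2 fold change was -0.0059 ± 0.0324 for Unc5a, -0.027 ± 0.0460 for Unc5c, -0.012 ± 0.0713 for Dcc and 0.23 ± 0.170 for Unc5d (SE).

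Sema3b, Plxnb2, Ntn4 and Unc5b were lowest in WT libraries 1 and 3, where choroid plexus markers were also lowest. The choroid plexus score, the mean log2 CPM of the 12 markers minus its mean over libraries, was 1.26, 1.43, 1.16 and 1.27 in heterozygote libraries 1 to 4, against -3.58, -0.18, -1.68 and 0.32 in WT libraries 1 to 4. Among WT libraries Sema3b and Ntn4 stood in the order of this score. Without WT libraries 1 and 3, the log2 fold change was 0.24 for Plxnb2 (edgeR adjusted p = 0.0264) and 1.00 for Sema3b (edgeR adjusted p = 0.00617), against 0.23 for Ntn4 and 0.12 for Unc5b (edgeR adjusted p = 0.411 and 0.572). With the score as a covariate it was 0.16 for Plxnb2 (edgeR adjusted p = 0.714), 0.40 for Sema3b (0.662), 0.036 for Ntn4 (0.978) and 0.024 for Unc5b (0.982). The score itself differs between genotypes, with 58.6% of its variance between them, so tissue and genotype cannot be told apart in that fit. Summed ependymal markers were also lowest in WT libraries 1 and 3. They stood at 29.8 to 45.3 CPM in heterozygotes and 10.4 to 20.7 CPM in WT, with 6 of 6 markers not overlapping. Meningeal marker scores overlapped, at 0.06 to 0.76 in heterozygotes and -0.96, -0.55, -0.46 and 0.22 in WT libraries 1 to 4. Of the 9 meningeal markers, 4 did not overlap. The meningeal sum was 321 to 389 CPM in heterozygotes and 92.1 to 241 CPM in WT. Its largest part was Igf2, at 229 to 271 CPM in heterozygotes and 43.1 to 156 CPM in WT. Striatal marker scores were -0.16 to 0.79 in heterozygotes and -0.42 to -0.23 in WT, with 6 of 9 markers not overlapping. The striatal sums overlapped, at 213.6 to 328 CPM in heterozygotes and 198.1 to 213.7 CPM in WT. Thalamic scores were 0.02 to 0.45 in heterozygotes and -0.32 to -0.11 in WT, with 3 of 8 markers not overlapping. Myelinating oligodendrocyte markers summed to 3433, 4706, 3169 and 4468 CPM in WT libraries 1 to 4, again lowest in libraries 1 and 3. In heterozygotes this sum was 3824 to 4582 CPM, within the WT range. Plxnb3 had 25.8, 33.3, 23.4 and 31.9 CPM in WT libraries 1 to 4, and 28.1 to 33.6 CPM in heterozygotes. The part of these tissues and of myelinating cells was not tested. Libraries 1 and 3 of each genotype also share a spike-in mix, as the ratio of ERCC-00130 to ERCC-00002 was 1.20 to 1.28 in odd-numbered and 0.165 to 0.186 in even-numbered libraries. Among the odd-numbered libraries, 2 of each genotype, the log2 fold change was 0.54 for Plxnb2 and 2.22 for Sema3b (edgeR adjusted p = 0.00124 and 0.00161), and within even-numbered ones 0.27 and 1.07 (edgeR adjusted p = 0.0526 and 0.0400). For Ntn4 the same pair of values was 0.72 and 0.25, odd before even (edgeR adjusted p = 0.0122 and 0.605), and for Unc5b 0.46 and 0.14 (edgeR adjusted p = 0.0119 and 0.756). Slit2 kept a log2 fold change of 0.30 with the score as a covariate and 0.33 without WT libraries 1 and 3, though neither passed (edgeR adjusted p = 0.691 and 0.123).

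**Figure D3:**
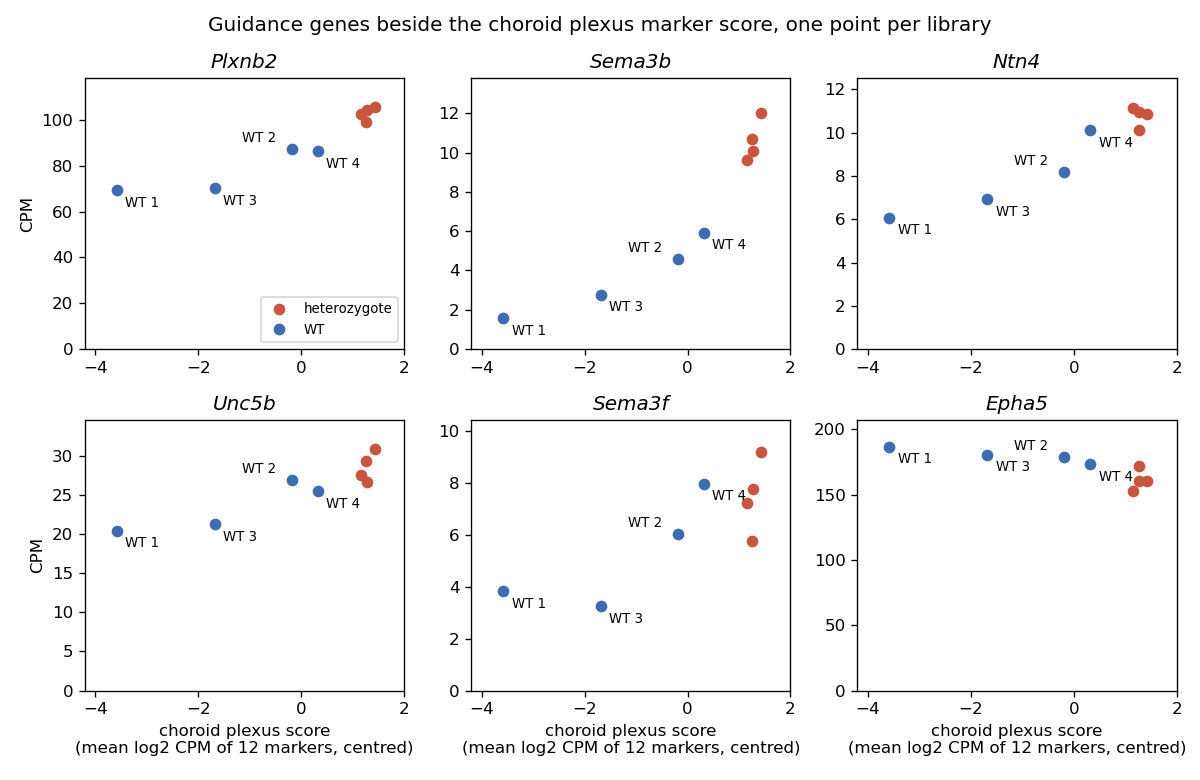
CPM of 6 guidance genes (vertical axes, from 0) against the choroid plexus score of the library (horizontal axes), with heterozygotes in red and WT in blue, 1 point per library. WT libraries 1 and 3 have the lowest scores (-3.58 and -1.68) and the lowest Plxnb2, Sema3b, Ntn4, Unc5b and Sema3f, and all 4 heterozygote libraries have scores of 1.16 or above.

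None of the 22 Eph and ephrin genes passed, and 20 of them differed by less than 1.5-fold, Epha1 and Efna4 being the others. Epha5, a receptor for A-type ephrins, had 161, 161, 153 and 172 CPM in heterozygotes, against 187, 179, 181 and 173 CPM in WT libraries 1 to 4. The genotypes did not overlap, but heterozygote library 4 and WT library 4 were close. The log2 fold change was -0.16 ± 0.0397 (SE; edgeR adjusted p = 0.0562), and DESeq2 called the gene (adjusted p = 0.0105) while limma-voom did not. Of the 9 A-type receptors, 6 had negative estimates: beside Epha5 these were Epha3 (-0.15 ± 0.0718 SE), Epha4 (-0.14 ± 0.0730), Epha7 (-0.13 ± 0.0905), Epha6 (-0.11 ± 0.0759) and Epha10 (-0.082 ± 0.0615). Epha4, the most abundant, was at 476, 406, 382 and 482 CPM in heterozygotes and 482, 494, 489 and 452 CPM in WT, with heterozygote libraries 2 and 3 low and libraries 1 and 4 within the WT range. Epha3 had 22.4, 23.5, 18.7 and 23.7 CPM in heterozygotes against 22.7, 24.3, 25.6 and 25.3 CPM in WT, and heterozygote library 3 was again the lowest (edgeR adjusted p = 0.305). Epha6 and Epha7 were likewise lowest in heterozygote libraries 2 and 3. Epha1, at 0.42 to 0.70 CPM in heterozygotes and 0.23 to 0.42 CPM in WT, had an estimate of 0.76 ± 0.273 (SE; edgeR adjusted p = 0.165) on few reads, and 6.01% of its exon bases overlap Zyx on the opposite strand.

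The B-type receptors ranged from -0.11 for Ephb6 to 0.13 for Ephb4 on the log2 scale. Ephb6 had 77.9, 82.2, 72.9 and 79.0 CPM in heterozygotes against 82.0, 81.1, 85.7 and 88.6 CPM in WT, with heterozygote library 2 above WT libraries 1 and 2 (edgeR adjusted p = 0.190). All 3 B-type ephrins had positive estimates: 0.13 ± 0.0720 for Efnb1, 0.14 ± 0.105 for Efnb2 and 0.11 ± 0.0372 for Efnb3 (SE). Efnb3 was at 136, 144, 142 and 144 CPM in heterozygotes against 124, 131, 137 and 132 CPM in WT, with heterozygote library 1 just under WT library 3 (edgeR adjusted p = 0.124). Of the A-type ephrins, Efna5 had 2.45, 3.19, 2.49 and 2.43 CPM in heterozygotes against 1.93, 1.99, 2.24 and 2.26 CPM in WT. The genotypes did not overlap and heterozygote library 2 stood apart, with a log2 fold change of 0.32 ± 0.127 (SE; edgeR adjusted p = 0.205). Efna3, the most abundant, differed by -0.10 ± 0.0526 (SE), and 14.1% of its exon bases overlap an antisense RNA. Efna4 (0.68 ± 0.325 SE) was read from under 1 CPM, and Efna1 and Efna2 differed by -0.051 ± 0.109 and 0.0022 ± 0.0720 (SE).

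**Figure D4:**
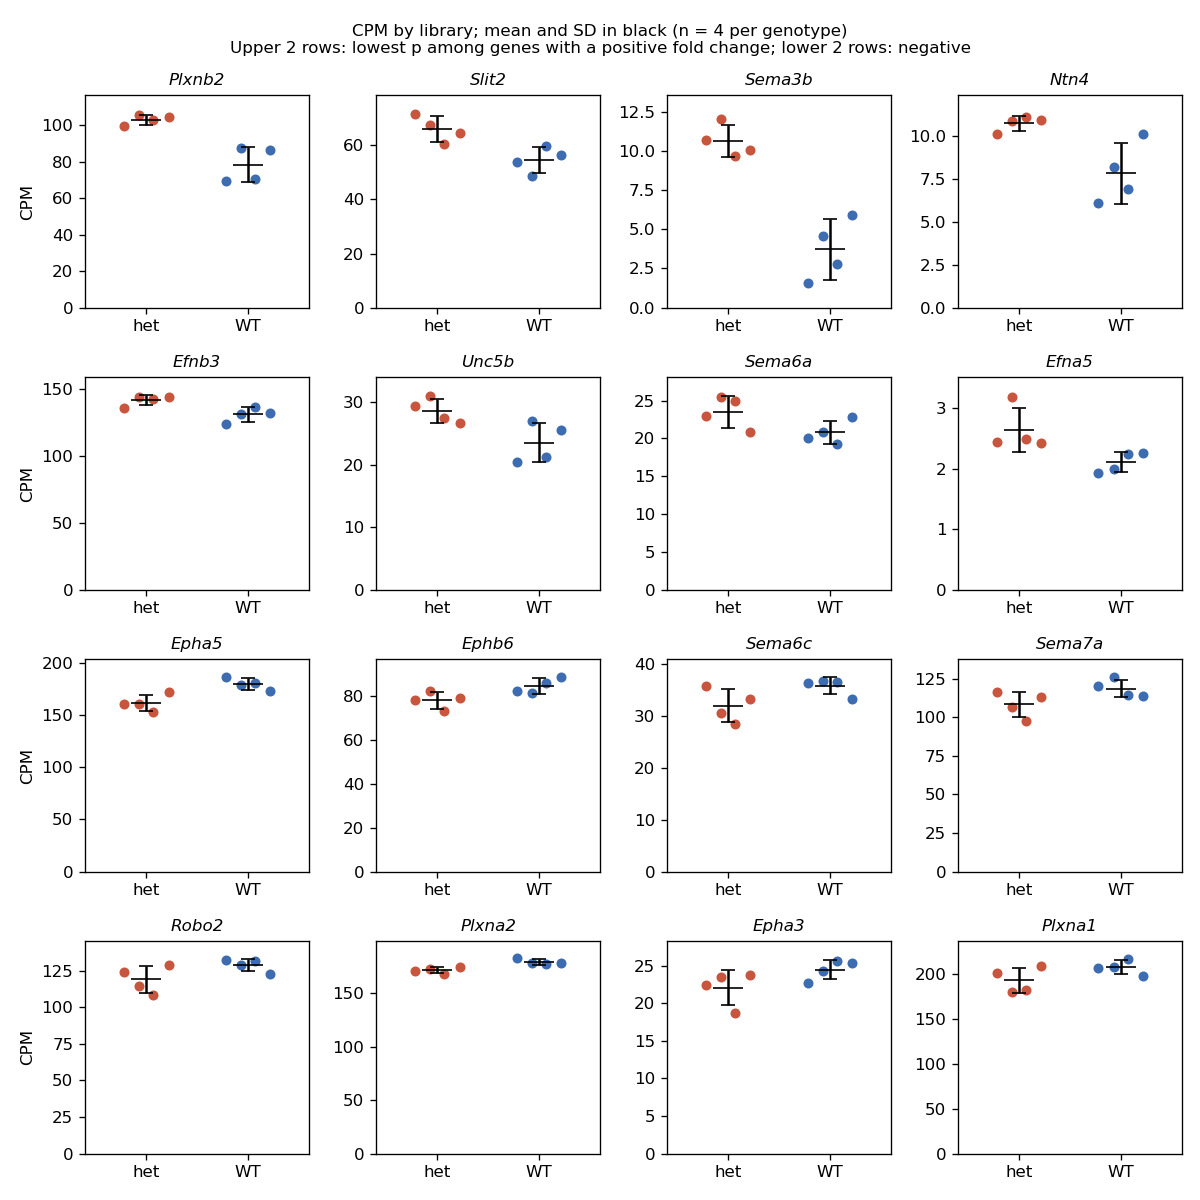
CPM in each library (vertical axes, from 0) for the 8 guidance genes with the lowest p among positive fold changes (upper 2 rows) and the 8 among negative ones (lower 2 rows), heterozygotes (het, red) left of WT (blue), with mean and SD in black. Plxnb2, Slit2, Sema3b, Ntn4, Efna5, Epha5 and Plxna2 are the genes whose genotypes do not overlap.

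The membrane semaphorins, classes 4 to 7, showed no called difference. None of the 13 passed, their log2 fold changes lay between -0.17 and 0.18, and 8 were negative. Sema6a, a ligand and receptor of the mossy fibre pathway, had 23.0, 25.4, 25.0 and 20.8 CPM in heterozygotes against 20.1, 20.9, 19.3 and 22.9 CPM in WT (log2 fold change 0.18 ± 0.0704 SE; edgeR adjusted p = 0.204). Sema6c had 35.7, 30.5, 28.4 and 33.1 CPM in heterozygotes against 36.3, 36.8, 36.6 and 33.3 CPM in WT (-0.17 ± 0.0650 SE; edgeR adjusted p = 0.206). Sema7a, which signals through Plxnc1 and integrins, had 116, 106, 97.3 and 113 CPM in heterozygotes against 120, 126, 115 and 114 CPM in WT (-0.13 ± 0.0540 SE; edgeR adjusted p = 0.231). In all 3 genes the genotypes overlapped. The neuropilin genes Nrp1 and Nrp2 differed by -0.069 ± 0.0657 and 0.044 ± 0.0457 on the log2 scale (SE).

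The spread among animals was a little above that of all genes. The median coefficient of variation (SD over mean) of the guidance genes was 7.75% in heterozygotes and 7.03% in WT, beside 6.82% and 6.37% over all genes. The largest were Plxnd1 among heterozygotes, at 41.1%, and Sema3b among WT libraries, at 51.8%. Heterozygote library 3 was the lowest of the 4 heterozygote libraries for 27 of the 68 genes and the highest for 14, and it held the lowest heterozygote value of Epha3, Epha4, Epha5, Sema3e, Sema7a, Robo2 and Robo3. The same library had the lowest CA1 and the highest thalamus marker score in its genotype, -0.34 and 0.45, where the other heterozygote libraries had -0.07 to -0.01 and 0.02 to 0.25. The part of these regions in the guidance genes was not tested.

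**Figure D5:**
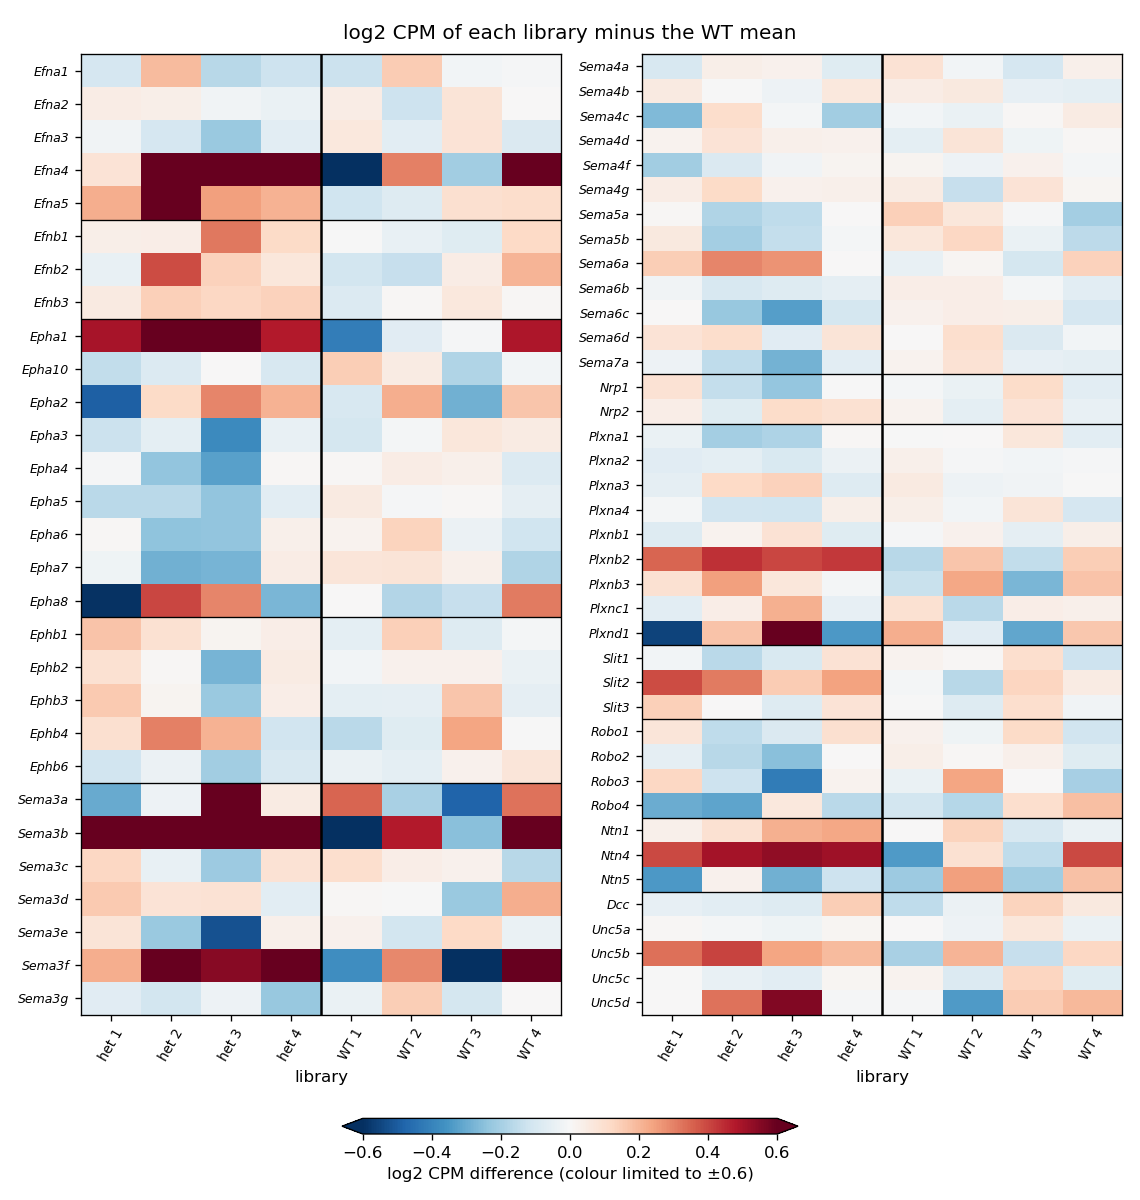
Log2 CPM of each guidance gene in each library minus the gene's WT mean, red above and blue below (colour limited to 0.6 either way), with heterozygote libraries left of the black line and WT libraries right of it. Plxnb2, Slit2, Sema3b, Ntn4 and Unc5b are red in all 4 heterozygote libraries, and the A-type receptor genes Epha3, Epha4, Epha6 and Epha7 are bluest in heterozygote library 3 or 2.

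Among genes that act with or downstream of these families, none passed. A list of 103 such genes, among them co-receptors, kinases and proteases, had 102 members tested and 0 past an edgeR adjusted p of 0.05. Over all genes 2.99% were called. At an unadjusted edgeR p under 0.05 there were 6 higher (5.88%) and 15 lower (14.7%), beside 10.0% and 7.11% of all genes. DESeq2 called 5 of the 102 and limma-voom 0, beside 1200 and 628 of all 17913 genes. The median log2 fold change was -0.019. Adam17, a protease that sheds membrane proteins, was at 24.0, 25.4, 24.8 and 24.1 CPM in heterozygotes against 21.9, 22.4, 21.7 and 22.5 CPM in WT (log2 fold change 0.15 ± 0.0406 SE; edgeR adjusted p = 0.0637). Chl1, a neural adhesion molecule that can act as a semaphorin co-receptor, had 246, 248, 222 and 252 CPM in heterozygotes against 274, 257, 281 and 272 CPM in WT (-0.16 ± 0.0437 SE; edgeR adjusted p = 0.0661). Neither gene overlapped between genotypes.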

How the data were processed

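The authors deposited raw read counts per Ensembl gene for 8 libraries. The submitters' processing notes name STAR 2.4.2a, HTSeq, FastQC and DESeq2 and the builds NCBIM37 and mm9. Settings, annotation and strand use are not given there. Per the labels' protocols, amplified complementary DNA primed at poly(A) and at random was sequenced, with ERCC spike-ins added. The 92 spike-in rows (0.0431% to 0.0787% of counts) were left out of library sizes and tests. Symbols matched 32620 of 37310 gene identifiers. Exon lengths are the union of GENCODE M21 exons (GRCm38), used for levels only; long rare isoforms lower a level.

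Counts were scaled by TMM, filtered with filterByExpr (minimum count 10, total 15) and compared with the robust quasi-likelihood F test of edgeR 4.0.16 run under R 4.3.3 as a two-sided test. Adjustment was by Benjamini-Hochberg over 17913 genes and a threshold of 0.05. A standard error is the log2 fold change over the root of F. DESeq2 1.42.0, limma 3.58.1 (voom) and the other alternatives are given at the end. The edgeR step was tested on simulated counts. Replicate libraries differed beyond sampling noise (chi-square per degree of freedom 7.42 to 25.0), so none was a duplicate.

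The members, lists and alternatives were chosen with earlier results of these data known. Values per library are given for members past the threshold, for the 8 with the lowest p in each direction with a mean of at least 1 CPM, and for other members named after their values were seen. A level is also given for the leading member of each role group, and the lowest p in each direction is named from the other pathway genes.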

Additional observations from a re-analysis of the deposited data

Results flagged for a closer look

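In 7 of 136 sets of 4 libraries (68 genes in 2 genotypes), 1 library lay far from the other 3 by Dixon's criterion at 95%; chance alone gives about 6.8 such sets. In heterozygotes, Efna5 was at 3.19 CPM in library 2 against 2.43 to 2.49 CPM in the others, and Efna1 at 4.24 CPM in library 2 against 3.31 to 3.47. Sema6d was at 94.4 CPM in heterozygote library 3 against 104.6 to 106.5, and Dcc at 17.3 CPM in heterozygote library 4 against 14.8 to 15.1. In WT, Ephb3 was at 25.8 CPM in library 3 against 22.1 to 22.2, Plxna2 at 183 CPM in library 1 against 177 to 178, and Sema6c at 33.3 CPM in library 4 against 36.3 to 36.8.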

How the results depend on the processing

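Of 68 guidance genes, 1 passed as reported, and 2 with upper quartile scaling, 6 with the DESeq2 Wald test and 3 with limma-voom. With animal number added to the model as 2 groups (86 to 88 against 93 to 97) 0 passed, and 0 with the choroid plexus score added. Animals 86 to 88 were heterozygote library 1 and WT libraries 1 and 2. There were 2 without WT libraries 1 and 3, 5 within odd-numbered libraries and 0 to 4 without each library in turn. The count was 0 without heterozygote library 1 or 2 or WT library 3 and 4 without WT library 4. Where 1 gene passed, it was not always Plxnb2. It was Slit2 without heterozygote library 3, and Epha5 without heterozygote library 4 or with no low-count filter. Sema3b was the gene without WT library 1 and within even-numbered libraries. An unadjusted edgeR p under 0.05 was found for 19, 10 and 11 guidance genes without heterozygote 1, heterozygote 2 and WT 3. Over all genes these numbers were 3045 of 18136, 2894 of 18112 and 2587 of 18129. With the animal number groups and the score in the model, 12 and 6 guidance genes were found, beside 2717 and 1183 of 17913 genes. The count over all 17913 genes, 535 as reported, was 564 with upper quartile scaling, 1200 with DESeq2 and 628 with limma-voom. With the animal number groups it was 231 and with the choroid plexus score 1, both also of 17913. It was 170 of 18574 without WT libraries 1 and 3, and 171 to 767 without each library. Within odd-numbered libraries 557 of 18006 genes passed, and within even-numbered ones 78 of 18181. The other pathway genes past the threshold numbered 0 as reported, 5 with DESeq2, 1 with no low-count filter and 0 to 1 without each library. Plxnb2 was also not called with no low-count filter (edgeR adjusted p = 0.0565). The cause of these shifts was not tested. The log2 fold changes of the 16 guidance genes of lowest p and of Nr2f1 kept their sign in all 20 alternatives, and Nr2f1 passed in each. The 16 were chosen by p in these same libraries, so their kept sign is no separate support. Of all 68 guidance genes, 50 kept their sign with the choroid plexus score and 53 within even-numbered libraries. Without each library in turn, 56 to 67 did. Same-numbered libraries of the genotypes did not deviate together (correlations of 0.027, -0.045, -0.093 and -0.078). These values cannot show whether the numbers pair animals, because a pairing need not leave a shared deviation. With the replicate block 1 guidance gene passed, Plxnb2 (log2 fold change 0.40, edgeR adjusted p = 0.0128). Genes under 1 CPM, such as Epha1 and Efna4, rest on few reads, which limits their precision.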

Other observations

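The 3 antisense RNAs of the Plxna4 locus were near the limit of detection. Plxna4os1 had 3, 13, 18 and 6 counts in heterozygote libraries 1 to 4, against 5, 14, 2 and 7 counts in WT libraries 1 to 4. Plxna4os2 had 18 counts and Plxna4os3 1 count over all 8 libraries. Plxna4 itself, a receptor gene of the mossy fibre system, was at 254 to 283 CPM in heterozygotes and 258 to 292 CPM in WT. Together, the guidance genes made up 0.457% to 0.487% of gene counts in heterozygote libraries and 0.464% to 0.481% in WT libraries.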
